A study of Canis lupus familiaris with 20 samples.

Results

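HSD11B1 and NR3C1 are 2 genes of the glucocorticoid response: the first encodes the enzyme that makes active hormone inside the cell, the second the receptor that reads it. They were chosen by gene name, as all probes that the array files call HSD11B1 or NR3C1, and the choice was made with measured values of these dogs in view, so their own levels are given as a description without a test. The genes are 2 of 10441 distinct symbols and take 3 of 42034 probes, 2 for HSD11B1 and 1 for NR3C1. All 3 probes passed the filter on dim probes, as did 6222 genes in all.

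Muscle RNA came from 2 escaper, 4 affected and 4 normal dogs, all aged 2 years. Escaper and affected dogs both carry the label DMD, Duchenne muscular dystrophy, in which the membrane protein dystrophin is missing from muscle fibres, and the escaper dogs are those that stay mildly affected. The labels name neither the muscle sampled nor the allele, sex or any steroid treatment of a dog. Each dog was hybridised on 2 arrays with opposite dyes against a common reference, muscle RNA of 1 normal individual, so every level below is a log2 ratio of dog over reference averaged over the 2 arrays of a dog, and n counts dogs. Of the 5 slides, each with its own scan, each held 2 dogs of 1 group, so the slide of the escapers and the escaper group cannot be told apart. Affected and normal dogs never shared a slide either, so every difference between groups below is also a difference between slides.

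Cortisol circulates together with cortisone, its inactive form. The HSD11B1 enzyme, 11-beta-hydroxysteroid dehydrogenase type 1, sits in the endoplasmic reticulum and turns cortisone back into cortisol with NADPH that H6PD supplies. The NR3C1 receptor waits in the cytosol on heat shock proteins, enters the nucleus once it has bound cortisol, and induces or represses genes. In skeletal muscle glucocorticoids are known for driving protein breakdown, and in Duchenne muscular dystrophy synthetic glucocorticoids are the standard drug treatment.

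The letters the arrays measured are shown for the probes with a reading frame free of stop codons, since they say which part of each message was read. The sequences come from the array files, whose genome build is not named there. The HSD11B1 upstream probe (A_11_P0000020121) lies at chr7:11366830-11366889 on the plus strand, and 1 of its 3 reading frames is free of stop codons. The HSD11B1 downstream probe (A_11_P0000040869) starts 274 bases further on, at chr7:11367104-11367163 on the same strand, and has a stop codon in every frame. The NR3C1 probe (A_11_P0000023278) lies at chr2:40995897-40995956 on the minus strand and has 2 open frames. Capitals mark the cysteine codons of the open frame that holds any. The DNA-binding domain of nuclear receptors is known for zinc fingers built on cysteines, and the NR3C1 probe holds 3 cysteine codons in that frame.
HSD11B1 upstream probe: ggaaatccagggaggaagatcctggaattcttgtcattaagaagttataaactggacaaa
NR3C1 probe: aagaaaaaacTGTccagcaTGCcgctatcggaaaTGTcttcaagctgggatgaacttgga

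Between 30.5% and 60.2% of the probes on an array gave a dog signal well above background, and the paired arrays of each dog had an r of 0.627 to 0.939. The highest share and the lowest r were those of affected 4, whose Cy5 array had a median signal 5.28 times background. On the other arrays that median was 1.67 to 2.70. A pair of dogs stood apart from the rest. Affected 1 had no correlation above −0.01 with any other dog, and escaper 2 none above 0.42, while each normal dog reached at least 0.84 with another normal dog. Affected 1 held the highest level of all 10 dogs in 31.1% of the tested genes and the lowest in 18%, and escaper 2 the highest in 25.5% and the lowest in 24.8%. "Cleared background" below means well above it by the scanner's own flag. Values without these dogs are therefore given beside the differences that moved most when they were left out.

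HSD11B1 was low in 3 of 4 affected dogs and in 1 of 2 escapers, and it kept a level like that of normal muscle in the other affected dog. At the downstream probe, the brighter of the pair, the log2 ratio was 0.28 in escaper 1 and −1.33 in escaper 2. It was 1.05 in affected 1, −1.42 in affected 2, −1.66 in affected 3 and −0.90 in affected 4, against 1.01, 0.35, 1.16 and 0.66 in normal 1 to 4. Affected 2, 3 and 4 and both escapers thus lay below every normal dog, and affected 1 lay between normal 3 and normal 1. Group means were −0.53 ± 1.14 in escaper (SD, n = 2), −0.73 ± 1.23 in affected (n = 4) and 0.79 ± 0.36 in normal dogs (n = 4). Affected minus normal came to −1.53 (log2, SE 0.58), or 2.88-fold lower, and escaper minus normal to −1.32 (SE 0.70). These comparisons share the normal dogs. Escaper and affected dogs differed by 0.21 (SE 0.70), which is less than its error. In a piece of muscle, fewer cells that make a message and less of it per cell cannot be told apart.

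The upstream probe of HSD11B1 gave the same order of groups. It read 0.40 in escaper 1 and −1.08 in escaper 2. It read 0.95, −1.62, −1.98 and −1.04 in affected 1 to 4, against 0.97, 0.05, 0.78 and 0.54 in normal 1 to 4. Here escaper 1 lay above normal 2, so only escaper 2 and affected 2, 3 and 4 were below all normal dogs. The differences were −1.51 (SE 0.60) for affected and −0.93 (SE 0.73) for escaper against normal dogs, and 0.58 (SE 0.73) for escaper against affected dogs. Over the 10 dogs the probes correlated with r = 0.985 and were at most 0.37 apart, and they share the same RNA and arrays.

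**Figure D1:**
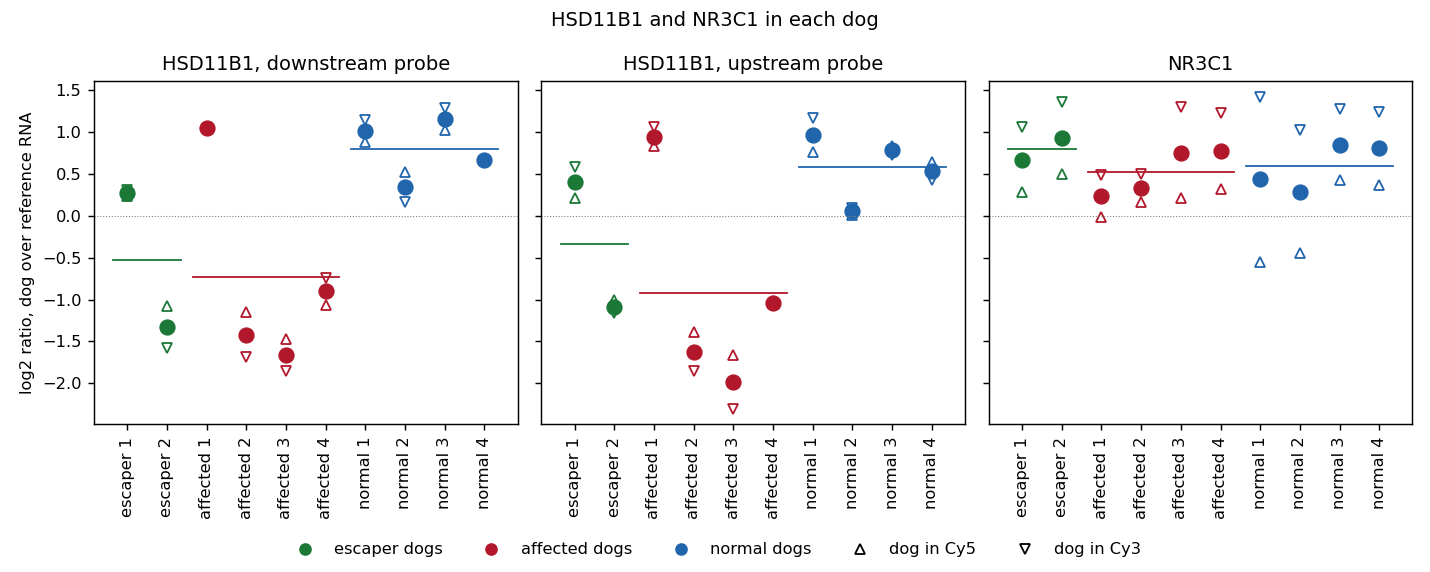
Log2 ratio of dog over reference RNA (vertical axis) for both HSD11B1 probes and the NR3C1 probe in each dog (horizontal axis, escaper, affected and normal dogs from left to right). Filled points are the mean of the 2 arrays of a dog, open triangles the single arrays, and bars the group means; at the downstream HSD11B1 probe affected 1, at 1.05, sits among the normal dogs while affected 2, 3 and 4 lie between −1.66 and −0.90.

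Ranked by level, the dogs fell into a higher and a lower set for HSD11B1. The higher set held normal 3, affected 1, normal 1, normal 4, normal 2 and escaper 1, and the lower set affected 4, escaper 2, affected 2 and affected 3. The step between the sets was 1.18 on the log2 scale, and no other step was over 0.43. Arrays of the same dog with opposite dyes differed by −0.53 to 0.33 (Cy3 minus Cy5), so neighbours within a set were no further apart than arrays of a dog and only the 1.18 step was larger. The spread among affected dogs, SD 1.23, was larger than in 97.5% of the 6222 tested genes, whose median SD was 0.321. The spread among normal dogs, SD 0.36, was larger than in 89.9% of them. Dogs that shared a slide could differ widely, as affected 1 and affected 2 did by 2.47 and the escapers by 1.61, and the normal pairs by 0.66 and 0.49. The slides of a group overlapped in affected and in normal dogs.

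The affected mean therefore depends on affected 1, and the escaper mean on which escaper is counted. Without affected 1, the other 3 affected dogs averaged −1.33 ± 0.39 (SD, n = 3), −2.12 from the normal mean. Without escaper 2, escaper 1 alone lay −0.52 from the normal mean, and without escaper 1, escaper 2 alone lay −2.12 from it. With the scanner's own processed signals, which are background-subtracted by the scanner software, the differences were −3.05 for affected and −2.72 for escaper against normal dogs. Each of these settings kept HSD11B1 lower than in normal dogs.

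HSD11B1 was near the limit of the arrays in the dogs where it was lowest. The dog signal of the downstream probe cleared background on 2 of 4 escaper, 4 of 8 affected and 8 of 8 normal arrays, and that of the upstream probe on as many. The arrays below that limit were those of escaper 2, affected 2 and affected 3. Affected 4 cleared it on both arrays, where its upstream probe read 9.17 times background in Cy5 and 3.25 times in Cy3. At the downstream probe the signal of the dog was 2.29 to 7.55 times local background in escaper, 1.91 to 31.0 times in affected and 7.29 to 19.4 times in normal dogs. The reference RNA, hybridised on the same spots, was well above background on all 20 arrays at 6.07 to 18.4 times background. In escaper 2, affected 2 and affected 3 the ratio thus sets a dim spot against a measured reference, and its exact size depends on the background correction.

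**Figure D2:**
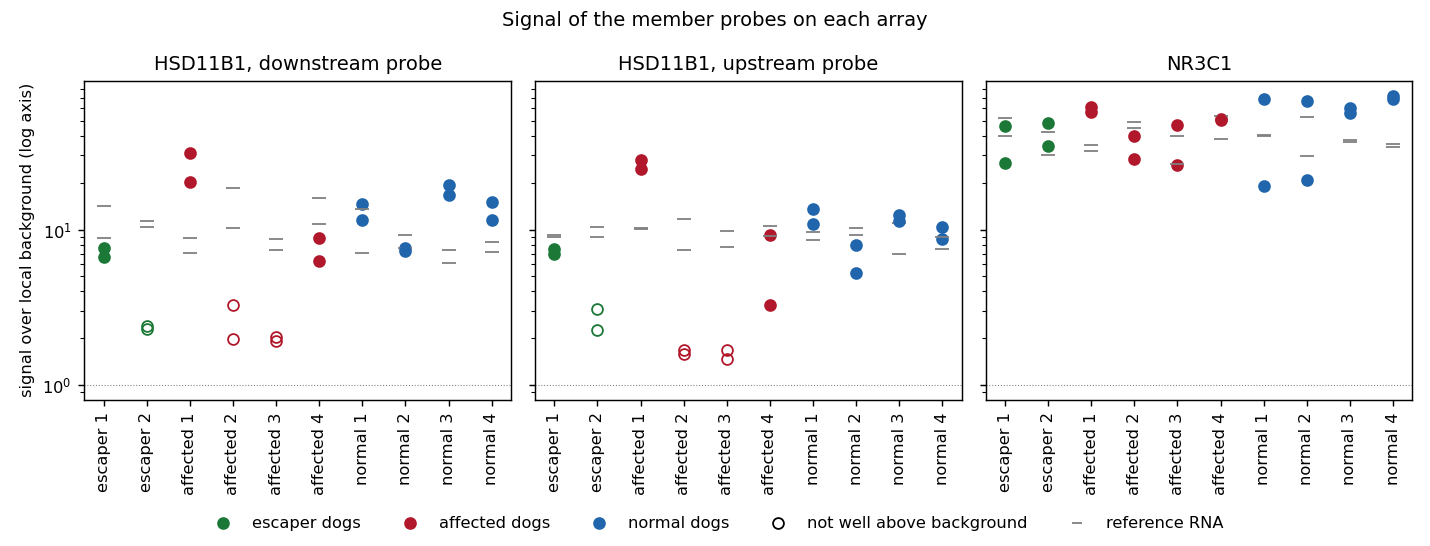
Spot signal over local background (vertical log axis) in the dog's channel, 2 arrays a dog, for the 3 member probes in escaper, affected and normal dogs (left to right). Open circles are arrays where the dog's signal was not well above background and grey dashes the reference RNA; for HSD11B1 the open circles are those of escaper 2, affected 2 and affected 3, and for NR3C1 there are none.

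NR3C1, the receptor gene, was expressed well above background on all 20 arrays and its levels overlapped between the groups. Its log2 ratio was 0.67 in escaper 1 and 0.93 in escaper 2. It was 0.23, 0.33, 0.75 and 0.77 in affected 1 to 4, against 0.44, 0.29, 0.85 and 0.81 in normal 1 to 4. The affected and normal ranges overlap over most of their length, and escaper 2 was the highest of the 10 dogs. Means were 0.80 ± 0.18 in escaper (SD, n = 2), 0.52 ± 0.28 in affected (n = 4) and 0.59 ± 0.28 in normal dogs (n = 4). The differences were −0.07 (SE 0.19) for affected and 0.21 (SE 0.23) for escaper against normal dogs, and 0.28 (SE 0.23) for escaper against affected dogs. With median centring in place of loess the last 2 were −0.13 and −0.03, opposite in sign. The spread among affected dogs, SD 0.28, was larger than in 41.5% of the tested genes.

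For NR3C1, the difference between dyes and that between the dog pairs of a group were larger than the difference between groups. The ratio was higher with the dog in Cy3 than in Cy5 in 10 of 10 dogs, by 0.96 ± 0.47 on the log2 scale (SD, n = 10 dogs). With its sign kept, this difference was further to the Cy3 side than in 99.9% of tested probes. Averaging the 2 orientations removes only the part of this difference that all dogs share, and it ran from 0.33 to 1.98 across dogs. Affected minus normal was 0.22 with the dogs in Cy5 alone and −0.36 with the dogs in Cy3 alone. Within each group the dogs of 1 slide lay above those of the other. Affected 3 and 4 averaged 0.76, against 0.28 in affected 1 and 2, and normal 3 and 4 averaged 0.83, against 0.36 in normal 1 and 2. Slides of affected dogs did not overlap in 34.3% of the tested genes, slides of normal dogs in 30.3%, and both held in 9.42%. Each slide holds different dogs, so slide and dog cannot be told apart.

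HSD11B1 and NR3C1 did not run together over the 10 dogs, with r = −0.26 and Spearman's rho = −0.10. Affected 1 had the lowest NR3C1 and the second highest HSD11B1, and escaper 2 the highest NR3C1 with an HSD11B1 in the lower set.

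The other genes of the pathway were grouped by role and tested across all probes with limma. No list member passed an adjusted p of 0.05 in any of the 3 comparisons. Over all 16008 tested probes 0.0187% passed between affected and normal dogs, and 0% passed between escaper and normal or escaper and affected dogs, so the counts in the lists match the whole array. At an unadjusted p under 0.05 there were 1992, 2953 and 835 probes in affected against normal, escaper against normal and escaper against affected dogs. By unadjusted p under 0.05, 6.08% of the 6222 tested genes were higher and 7.09% lower in affected than in normal dogs. The shares were 9.85% higher and 9.32% lower in escaper than in normal dogs, and 3.05% higher and 2.6% lower in escaper than in affected dogs. Member counts below are at that unadjusted level and are read against these shares. Genes named below for the smallest p of their list tend to separate the groups by that choice, so a lack of overlap adds no further support. Genes without a probe, too dim, or without a value in every dog are left out of each count. The last applies to 2 list genes that cleared background on all 20 arrays but had spots flagged as outliers, HSP90AA1, the inducible HSP90 chaperone of the receptor, with no value in 3 normal dogs, and the myosin gene MYH2, with none in escaper 1.

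**Figure D3:**
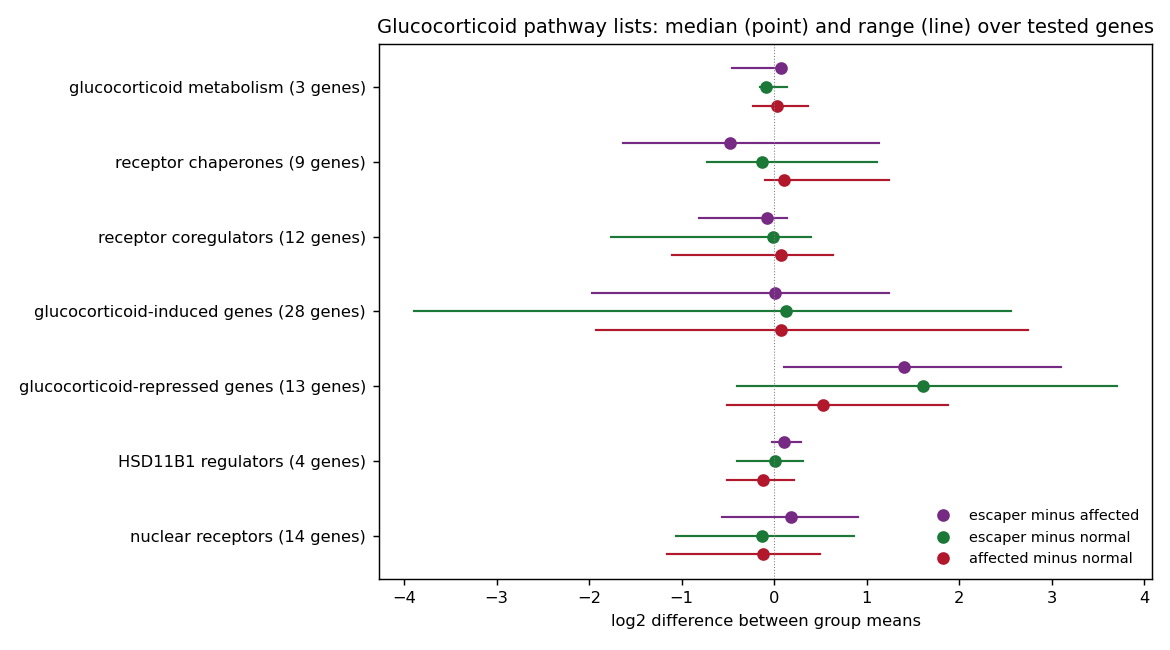
Median (points) and range (lines) of the log2 difference between group means (horizontal axis) over the tested genes of 7 glucocorticoid pathway lists, for escaper minus affected, escaper minus normal and affected minus normal dogs. The repressed genes stand furthest from 0 with medians of 1.40, 1.61 and 0.53.

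Enzymes and carriers of cortisol other than HSD11B1 gave 3 tested genes of 10, none at an unadjusted p under 0.05. HSD11B2, which inactivates cortisol, cleared background on 1 of 20 arrays and was not tested. H6PD, which makes the NADPH that HSD11B1 uses, averaged −0.04 ± 0.13 in escaper (SD, n = 2), 0.41 ± 0.56 in affected (n = 4) and 0.04 ± 0.08 in normal dogs (n = 4). Affected 1 was the highest at 1.12. Affected minus normal was 0.37 for H6PD (SE 0.24, limma adjusted p = 0.560), and 0.13 without affected 1. Escaper minus affected was −0.45 (adjusted p = 0.800), and −0.21 without affected 1. SLC37A4, the glucose-6-phosphate carrier that feeds H6PD, differed by −0.22 between affected and normal dogs (limma adjusted p = 0.501) and by −0.15 between escaper and normal dogs (0.624). Neither partner of HSD11B1 thus showed a drop like that of HSD11B1 in affected 2, 3 and 4, where H6PD read −0.20, 0.50 and 0.22.

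Of the transcription factors and cytokines that act on HSD11B1, 4 of 12 were tested. TNF, a cytokine known to raise HSD11B1 in human cells, lay below the normal dogs in all affected dogs, with a difference of −0.51 (SE 0.19, limma adjusted p = 0.337) between −0.26 ± 0.26 in affected and 0.25 ± 0.12 in normal dogs (SD, n = 4 each). It was the 1 regulator at an unadjusted p under 0.05 in that comparison, and there was none in the escaper comparisons. Escaper minus normal was −0.40 for TNF (adjusted p = 0.363), and −0.06 without escaper 2. NR1H3, the oxysterol receptor LXR alpha, differed by 0.29 between escaper and affected dogs (limma adjusted p = 0.800) and by 0.0012 without escaper 2. PPARG did not clear background on any array, and the CEBPA, CEBPB and CEBPD symbols had no probe.

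The chaperones that hold the receptor gave 9 tested genes of 16. Between affected and normal dogs none had an unadjusted p under 0.05, and HSPA4, an HSP110 family member, came closest with 0.49 (SE 0.36, limma adjusted p = 0.599), or 0.14 without affected 1. AHSA1, which speeds the ATPase of HSP90, was lower in escapers, at −0.53 ± 0.18 (SD, n = 2), than in normal dogs, at 0.0075 ± 0.11 (n = 4), a difference of −0.54 (SE 0.18, limma adjusted p = 0.206). Against affected dogs AHSA1 differed by −0.48 (adjusted p = 0.800), and both escapers lay below all other dogs. In each escaper comparison 1 chaperone was lower and none higher at the unadjusted level. Affected 1 held the highest level of 7 of the 9 chaperones, against 31.1% of all tested genes. The mean log2 ratio over the 9 genes was 0.49 in affected 1 and lay between −0.73 and −0.27 in the other 9 dogs.

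Coactivators and corepressors gave 12 tested genes of 20. In affected dogs 2 were higher than in normal dogs and none lower at the unadjusted level, and in each escaper comparison 1 was lower and none higher. NCOR1, a corepressor that silences nuclear receptors, led with 0.64 (SE 0.20, limma adjusted p = 0.274), at 0.21 ± 0.36 in affected and −0.43 ± 0.12 in normal dogs (SD, n = 4 each) with no overlap. In escapers NCOR1 averaged −0.42 ± 0.36 (n = 2). It read −0.17 in escaper 1, above every normal dog, and −0.67 in escaper 2, below every normal dog. The escaper mean differed from that of affected dogs by −0.63 (adjusted p = 0.800), or by −0.38 without escaper 2. PPARGC1A, the coactivator of mitochondrial genes, differed by −1.77 between escaper and normal dogs (SE 0.74, limma adjusted p = 0.253). It was −0.33 in escaper 1 and −2.94 in escaper 2. The difference was thus −0.47 with escaper 1 alone and −3.07 with escaper 2 alone. Affected 1, at −2.51, was nearly as low as escaper 2.

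Genes that glucocorticoids induce gave 28 tested of 40, and with all dogs their median differences lay near those of all tested genes. In affected against normal dogs 3 were higher and 3 lower at an unadjusted p under 0.05, with a median difference of 0.08 beside 0.05 over all tested genes. In escaper against normal dogs 4 were higher and 2 lower with a median of 0.13 beside 0.0046, and in escaper against affected dogs 1 was higher and 1 lower with a median of 0.01 beside −0.03. Without affected 1 the first of these counts was none higher and 3 lower, where 6.48% of all tested genes were higher and 6.91% lower. Without escaper 2 the medians were −0.12 for escaper minus normal and −0.33 for escaper minus affected, and without escaper 1 they were 0.42 and 0.28, so the escapers lay on opposite sides. The classic readouts of receptor activity, FKBP5 and TSC22D3, had limma adjusted p of 0.624 and 0.982 between affected and normal dogs.

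Single dogs moved more than the groups in these genes. FKBP5, the immunophilin that binds the receptor complex and is induced by it, read −2.39 in escaper 1 and −3.79 in escaper 2. It read 1.89 in affected 1, −2.39 in affected 2, −1.66 in affected 3 and −3.67 in affected 4, against −2.27, −2.35, −3.24 and −2.92 in normal 1 to 4. Affected 1 was thus far above all other dogs, and the other 9 overlapped. Affected and normal dogs differed by 1.24 (SE 0.99), and by 0.12 without affected 1. TSC22D3, which encodes the anti-inflammatory protein GILZ, read 0.18 in affected 1 and between −1.54 and −0.63 in the other dogs. Its differences were 0.03 for affected and 0.09 for escaper against normal dogs, with adjusted p of 0.982 and 0.942, and both turned negative under median centring, to −0.16 and −0.50. Affected minus normal was −0.36 for TSC22D3 without affected 1, and escaper minus normal −0.21 without escaper 2.

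Affected 1 held the highest level of 11 of the 28 induced genes, a share of 39.3%, and the lowest of 4, against 31.1% and 18% of all tested genes. The 11 were FKBP5, TSC22D3, PER1, ZBTB16, MT2A, MT1E, FOXO1, FOXO3, SESN1, PCK1 and GADD45A, named after their values were seen. MT2A and MT1E, metallothioneins that bind zinc and copper, read 0.81 and 1.41 in affected 1. Their ranges in the other affected dogs were −4.25 to −1.26 and −3.17 to −2.39. Escaper 2 was also high, at 0.0031 and −0.37, against −5.01 to −4.36 and −4.33 to −2.14 in normal dogs. Each of these genes was saturated on 2 arrays. FOXO1, a transcription factor of the atrophy programme, read 0.69 in affected 1, against −1.62 to −0.97 in the other affected dogs and −0.37 in escaper 2. DUSP1, PIK3R1, TXNIP and TAT, also induced by glucocorticoids, were lowest in affected 1. Escaper 2 held the highest level of 9 induced genes, among them DUSP1, NFKBIA and ANXA1, and the lowest of 6, among them FKBP5 and PDK4. These shares, 32.1% and 21.4%, were near the 25.5% and 24.8% of all tested genes.

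**Figure D4:**
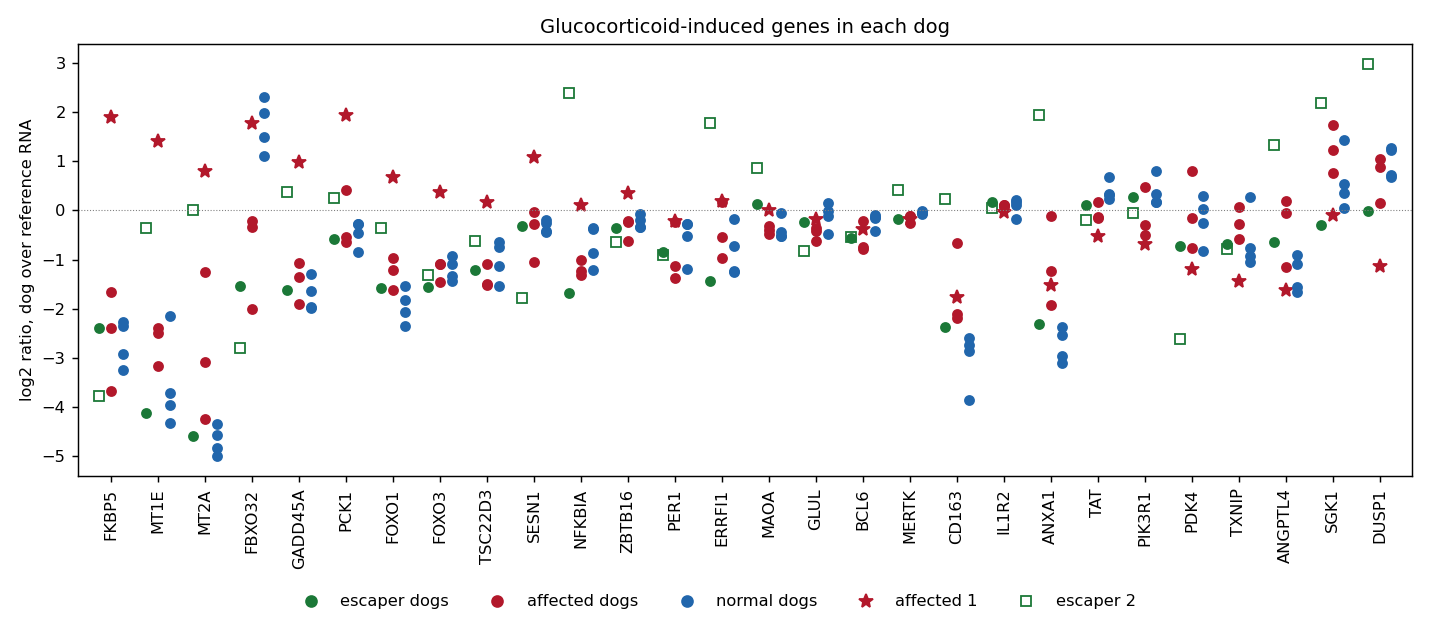
Log2 ratio of dog over reference RNA (vertical axis) of the 28 tested glucocorticoid-induced genes (horizontal axis, ordered by affected 1 minus the mean of the other affected dogs), with escaper, affected and normal dogs from left to right at each gene. The star of affected 1 is the highest point for 11 genes, among them FKBP5 at 1.89, and the open square of escaper 2 for 9. These are shares of 39.3% and 32.1%, against 31.1% and 25.5% of all tested genes.

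FBXO32, the ubiquitin ligase atrogin-1 of muscle atrophy, was the induced gene with the smallest p in escapers. It read −1.53 in escaper 1 and −2.81 in escaper 2. It read 1.77, −0.22, −0.33 and −2.01 in affected 1 to 4, against 1.11, 1.49, 1.99 and 2.31 in normal 1 to 4. The dogs with FBXO32 below every normal dog were both escapers and affected 2, 3 and 4, the same 5 that lay below the normal dogs in HSD11B1 at the downstream probe, and affected 1 was again among the normal dogs. Escaper and normal dogs differed by −3.90 (SE 0.84, 14.9-fold lower, limma adjusted p = 0.189). In a limma fit with slides as blocks the adjusted p was 0.0461. That fit called 522 probes between escaper and normal dogs, against 0 in the main fit. Its consensus correlation within slides was negative, at −0.27. In the main fit affected and normal dogs differed by −1.92 (SE 0.68, limma adjusted p = 0.323).

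TAT, a tyrosine-degrading enzyme, was the induced gene with the smallest p in affected dogs, with a difference of −0.56 from normal dogs (SE 0.18, limma adjusted p = 0.283). It averaged −0.16 ± 0.28 in affected and 0.40 ± 0.20 in normal dogs (SD, n = 4 each) with no overlap. MAOA, which breaks down monoamines, was higher in escapers, at 0.49 ± 0.52 (n = 2), than in affected dogs, at −0.30 ± 0.21 (n = 4), by 0.79 (limma adjusted p = 0.800), and by 0.43 without escaper 2.

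Genes that glucocorticoids repress, inflammatory and matrix genes, stood highest in escaper 2. Of 22 genes 13 were tested. In escaper against normal dogs 8 were higher and none lower at an unadjusted p under 0.05, with a median of 1.61 beside 0.0046 over all tested genes. In escaper against affected dogs 1 was higher and none lower, with 13 of 13 positive and a median of 1.40 beside −0.03. In affected against normal dogs none was higher and 2 were lower, with a median of 0.53 beside 0.05. Without escaper 2 the escaper medians were 0.11 against normal and −0.23 against affected dogs, and without escaper 1 they were 2.77 and 2.77. Escaper 2 held the highest level of 11 of the 13. The filter asks for 2 dogs clear of background, so a gene dim in most dogs enters where a few are high. SELE and COL1A1 cleared background on 4 of 20 arrays and CCL5, CXCL8 and IRF1 on 9, against 20 for ICAM1 and COL1A2. PTGS2, MMP3 and CSF2, on at most 2, were not tested. The count in escaper 2 therefore depends partly on that filter. Escaper 2 also held the highest level of 10 of 11 fibroblast and matrix, 9 of 9 macrophage and myeloid, 7 of 7 endothelial and 4 of 4 smooth muscle and pericyte markers, against 25.5% of all tested genes. COL1A1, COL1A2 and COL3A1, fibrillar collagen genes, are in both the repressed and the fibroblast lists. The part of cell content in these genes was not tested.

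IGF1, the muscle growth factor, had the smallest p of the repressed genes in escapers, with a difference of 1.61 from normal dogs (SE 0.46, limma adjusted p = 0.189). With slides as blocks the limma adjusted p was 0.0498, in a fit that called 522 probes here, against 0 in the main fit. In that fit the consensus correlation within slides was negative, at −0.27, and both escapers were on the same slide. Without escaper 2 the difference was 0.58. IGF1 read 0.12 in escaper 1 and 2.17 in escaper 2. It read −0.10, 0.07, 0.51 and 0.71 in affected 1 to 4, against −0.36, −0.49, −0.41 and −0.61 in normal 1 to 4. Both escapers and all affected dogs thus lay above every normal dog, in a gene named for its small p. IGF1 cleared background on 15 of 20 arrays. The collagen genes COL3A1 and COL1A2 had larger differences between escaper and normal dogs, 3.71 and 3.43, at adjusted p of 0.202 and 0.201. IRF1, an interferon-response factor, read 2.49 in escaper 2 and between −0.65 and 0.04 in the other 9 dogs, and it differed by 1.40 between escaper and affected dogs (adjusted p = 0.800), or by 0.03 without escaper 2. It cleared background on 9 of 20 arrays.

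Other nuclear receptors gave 14 tested genes of 28. In affected against normal dogs none was higher and 2 lower, in escaper against normal dogs 1 higher and 2 lower, and in escaper against affected dogs none higher and 1 lower at the unadjusted level. NR3C2, the mineralocorticoid receptor, which also binds cortisol, averaged 1.32 ± 0.20 in escaper (SD, n = 2), 0.83 ± 0.98 in affected (n = 4) and 1.15 ± 0.25 in normal dogs (n = 4). It read −0.62 in affected 1, against 1.19 to 1.43 in the other affected dogs, and its differences had limma adjusted p of 0.765 or more. Affected minus normal was −0.32, and 0.17 without affected 1. NR4A2, an orphan receptor of the immediate early response, averaged −0.03 ± 0.55 in affected and 1.13 ± 0.38 in normal dogs (SD, n = 4 each) with no overlap, a difference of −1.16 (SE 0.35, 2.23-fold lower, limma adjusted p = 0.274). It cleared background on 14 of 20 arrays. RARA, a retinoic acid receptor, was higher in escaper than in normal dogs by 0.75 (limma adjusted p = 0.201), and without escaper 2 by 0.34. THRA, a thyroid hormone receptor, differed by −0.56 between escaper and affected dogs (adjusted p = 0.800), by −0.11 without escaper 1 and by −1.004 without escaper 2, with the opposite sign under the scanner's processed signals (0.15) and with no background correction (0.16).

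The muscle label was checked against markers. Of the mature fibre genes CKM, MB, TNNT3, TNNI2, TTN, MYH7, ACTN3 and MYH2 cleared background on all 20 arrays and PYGM on 19, while the probe of ACTA1, skeletal muscle actin, did so on 1. CKM was saturated on 18 arrays, TNNI2 on 17, MYH2 on 14, TNNT3 on 11 and TTN on 3, which compresses their ratios. HSD11B1 is known from fat, fibroblasts and macrophages as well as from muscle, so the markers of these cells are given beside it. The mean log2 ratio over 9 of 10 adipocyte markers lay between −0.17 and 0.32 in escaper, −0.50 and 0.18 in affected and 0.20 and 0.36 in normal dogs. ADIPOQ, the fat hormone adiponectin, cleared background on 11 of 20 arrays. The fibroblast and matrix markers, 11 of 12, lay between −0.07 and 2.18 in escaper, −1.16 and 1.08 in affected and −1.08 and −0.64 in normal dogs. The macrophage and myeloid markers, 9 of 13, lay between −1.22 and 0.67 in escaper, −1.11 and −0.25 in affected and −1.79 and −1.41 in normal dogs. In affected 2, 3 and 4 and in escaper 2, where HSD11B1 was lowest, the matrix and macrophage means were above those of every normal dog. The same was true of escaper 1, and affected 1 was above the normal dogs in macrophage but not in matrix markers.

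Markers of regenerating fibres and satellite cells, 5 of 10, had their lowest mean in the normal dogs and affected 1, where HSD11B1 was highest. The members differed. Affected minus normal was 3.24 for MYH8, 3.16 for ACTC1, 1.76 for TNNT2 and 0.78 for CHRNA1, but 0.08 for CDH15. CDH15 differed by 0.06 between escaper and normal dogs, and PAX7, clear of background on 5 arrays, was not tested. The mean of the 5 was −0.09 in escaper 1 and 0.45 in escaper 2. It was −2.34 in affected 1, −0.14 in affected 2, −0.32 in affected 3 and 0.43 in affected 4, against −2.38, −2.33, −2.38 and −2.50 in normal 1 to 4. Affected 1 was at the normal level here as it was in HSD11B1, whereas escaper 1 had markers near those of the other dystrophic dogs with an HSD11B1 near that of normal 2. Mature fibre markers, 8 of 11, were low in affected 1 (−1.63) and escaper 2 (−1.69), against 0.22 to 0.82 in the other dogs. Over the 4 of them with no saturated spot, MB, MYH7, PYGM and ACTN3, a choice made after seeing the data, the mean was 0.71 in escaper 1 and −2.03 in escaper 2. It was −2.23, 0.41, 0.33 and 0.31 in affected 1 to 4, against 1.23, 0.81, 0.93 and 1.04 in normal 1 to 4. Affected 1, with HSD11B1 at the normal level, was the lowest dog here. Smooth muscle and pericyte markers, 4 of 7, endothelial markers, 7 of 9, and mast cell and granulocyte markers, 3 of 7, had group medians between −0.53 and 0.46. The endothelial mean was 0.99 in escaper 2 and at most 0.096 in the other dogs, and the smooth muscle mean was 0.74 in escaper 2 and at most 0.30 in the others. Of the T cell markers 0 of 7 were tested, and CD8A did not clear background on any array. The part of cell content in the HSD11B1 difference was not tested.

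**Figure D5:**
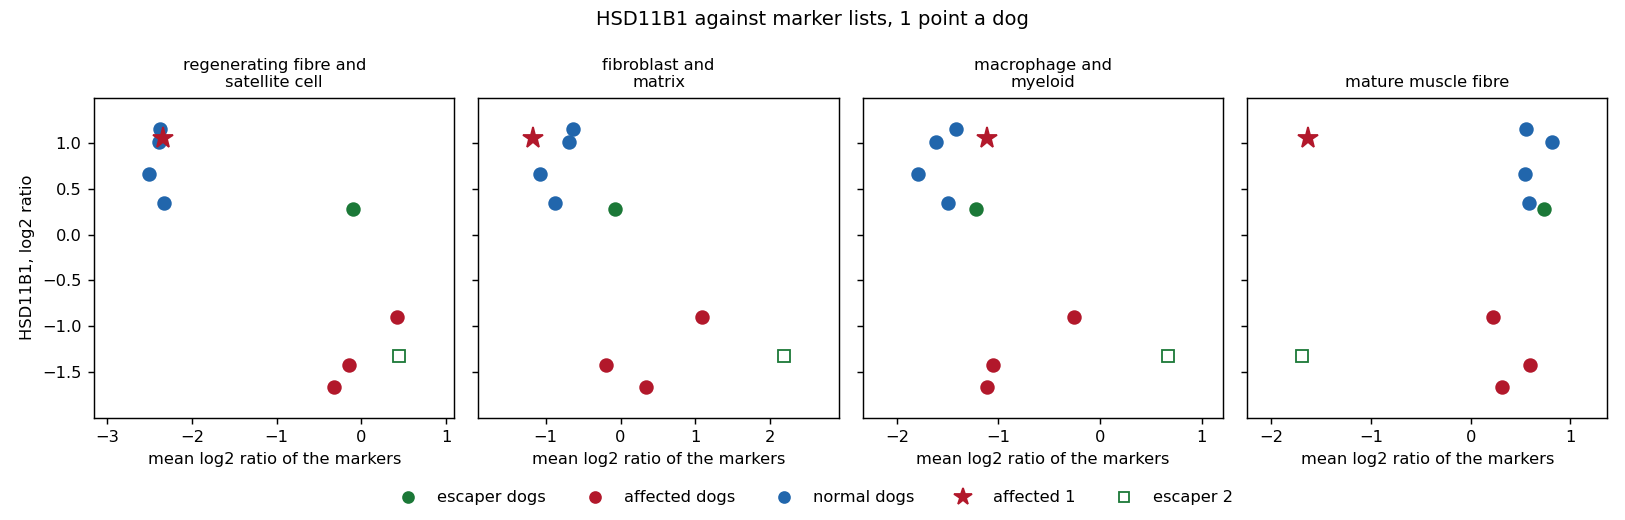
HSD11B1 log2 ratio at the downstream probe (vertical axis) against the mean log2 ratio of 4 marker lists (horizontal axes), 1 point a dog in escaper, affected and normal colours. Affected 1 (star) lies with the normal dogs in the regenerating fibre panel at −2.34 and apart from them in the mature fibre panel at −1.63, beside escaper 2 (open square) at −1.69.

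Over the 10 dogs, the genes most like HSD11B1 among 6221 others were CNTF, a neurotrophic factor (r = 0.911), RAP1A, a small GTPase (0.911), CIAO2A, of iron-sulphur protein assembly (0.906), UBE2QL1 (0.90) and CCSER2 (0.894). The most opposite were SMC4, a condensin subunit needed for chromosome packing in dividing cells (−0.947), the secreted trefoil peptide TFF1 (−0.937) and the neurofilament chain NEFL (−0.922). SMC4 read −0.90 and −0.60 in escaper 1 and 2. It read −1.58, −0.48, −0.40 and −0.49 in affected 1 to 4, against −1.79, −1.28, −1.55 and −1.68 in normal 1 to 4. Affected 1 lay with the normal dogs here, which follows from choosing SMC4 for its opposite course to HSD11B1. The genes most like NR3C1 were PIGU (0.876), MYCBP (0.837), the mRNA-decay factor ZFP36L1 (0.831), STX10 (0.824) and the chemokine receptor ACKR3 (0.823), and the most opposite were CRCP (−0.855), PLA2G15 (−0.825) and LRRC47 (−0.818). These correlations describe dogs that share a reference and slides, and they carry no test.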

How the data were processed

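Muscle RNA of 2 escaper, 4 affected and 4 normal dogs was read on 20 two-colour canine arrays. Per the file headers, the deposited scanner files come from Agilent Feature Extraction 9.5.3.1 and hold the mean and local background intensity of each spot in both colours. The deposited value table holds log2 ratios. Each of its columns equalled the log2 ratio of processed signals, dog over reference (r = 1), with swapped arrays already turned and no centring. Its column medians ran from −0.16 to 0.25, why it was left uncentred is unknown, and it served as an alternative.

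Intensities were corrected with normexp (offset 50, limma 3.58.1, R 4.3.3) and loess with control spots at weight 0. Outlier spots were left out, ratios turned to dog over reference and the 2 arrays of a dog averaged. Probes well above background on both arrays of at least 2 dogs, with a value in every dog, were tested (16008). All dogs entered 1 limma fit with 3 groups. P-values were adjusted by Benjamini-Hochberg over the tested probes at a threshold of 0.05, and the fit was tested on simulated data. Symbols came from the array files, updated through the dog table of assembly UU_Cfam_GSD_1.0 and, for 13 genes, the probe description. A symbol was found for 12302 of 42034 probes. A gene is represented by its tested probe with the highest mean log2 intensity.

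The members, lists and tests were chosen with earlier results of these data known. From each list and comparison the text names members that passed, up to 4, or else the member with the smallest p. FKBP5, TSC22D3, HSD11B2, H6PD and NR3C2 are always named, and so are the 5 genes most like and the 3 most opposite to each member. Further genes are examples. The labels do not say that dogs are unrelated, and precision is limited by their number. Alternatives were other signals, normalisations, filters, variance models, dyes and samples. Protein and promoter sequences were not used here.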

Additional observations from a re-analysis of the deposited data

Results flagged for a closer look

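In groups of 4 dogs, a value was looked at again where 1 dog's gap to its nearest neighbour, as a share of the group's range, exceeded Dixon's critical value. This held for 6 of 74 group values, where chance flags about 1 in 20. In affected 1, the mineralocorticoid receptor gene NR3C2 read −0.62, against 1.19 to 1.43 in the other affected dogs (ratio 0.882). The mean of the glucocorticoid-induced genes was 0.03 in affected 1, against −0.83 to −0.71 in the other affected dogs (ratio 0.860). The mature fibre markers of affected 1 were at −1.63, against 0.22 to 0.59 (ratio 0.834). In affected 4, the macrophage and myeloid markers were at −0.25, against −1.11 to −1.05 (ratio 0.928). In normal 1, MAOA read −0.05, against −0.53 to −0.45 in the other normal dogs (ratio 0.832), and the mature fibre markers were at 0.82, against 0.55 to 0.59 (ratio 0.859). HSD11B1 in affected dogs was not among them, although affected 1 lay on the normal level.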

How the results depend on the processing

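No paired analysis between groups was run, because each dog belongs to 1 group. Replicate numbers follow the order of the records. HSD11B1 kept its direction against normal dogs under every setting run, and with a dog left out it ran from −2.12 to −1.22 in affected and from −2.12 to −0.52 in escaper dogs. Its escaper minus affected difference ran from −0.60 to 1.01. The largest HSD11B1 values came from the processed signals and the deposited table, which hold the same ratios (−3.05 affected and −2.72 escaper, minus normal). These also gave 31 and 4 probes past the threshold (affected and escaper, minus normal), medians of 1.64 and 3.16 for repressed genes, −0.21 for regulators in affected and −0.21 for metabolism in escaper dogs, and turned NR3C2 (escaper minus normal, −0.025) and, escaper minus affected, TSC22D3 (−0.042) and THRA (0.15). No background correction gave 19 probes (affected minus normal) and THRA at 0.16. Median centring moved the median of all genes by −0.18 in escaper minus normal and −0.18 in escaper minus affected. Escaper minus normal was then −0.13 for NR3C1, −0.19 for metabolism, −0.35 for coregulators, −0.27 for regulators, −0.014 for NR3C2 and −0.50 for TSC22D3. Escaper minus affected was −0.030 for NR3C1, −0.24 for metabolism, −0.34 for coregulators, −0.065 for regulators, −0.025 for nuclear receptors and −0.35 for TSC22D3, and affected minus normal was −0.16 for TSC22D3. Without the filter, affected minus normal was −0.027 for coregulators and −0.014 for regulators, and escaper minus normal gave 1 probe and 0.26 for regulators. The stricter filter gave, escaper minus normal, 2.98 for repressed genes, 0.18 for regulators and 0.17 for nuclear receptors. Escaper minus affected was then −0.19 for metabolism. Both filters change which genes are counted, and the stricter filter left only ICAM1 and COL1A2 of the repressed genes. Slides as blocks gave 114 (affected) and 522 (escaper) probes against normal dogs at a consensus correlation of −0.27, and 113 probes were called from affected and normal dogs alone. The Cy5 arrays gave 7 probes, NR3C1 at 0.22 and regulators at −0.050 (affected minus normal), coregulators at −0.12 (escaper minus normal), and metabolism at −0.017 and TSC22D3 at −0.036 (escaper minus affected). The Cy3 arrays gave 1 probe, NR3C1 at −0.36, regulators at −0.20 and TSC22D3 at −0.043 (affected minus normal), and nuclear receptors at 0.12 against normal and 0.40 against affected dogs in escapers. Apart from the filters, the cause was not tested.

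Leaving out 1 dog, probe counts ran from 0 to 113 (affected minus normal), 0 to 3920 (escaper minus normal) and 0 to 1755 (escaper minus affected). The highest affected count came without either escaper. The others came without escaper 1, where the fit takes the spread of the other groups for escaper 2. Without affected 1 the counts against normal dogs were 22 (affected) and 9 (escaper), without affected 3 the affected count was 6, without normal 3 or normal 4 it was 1, and without normal 2, affected 2 or affected 4 it was 0. Without escaper 2 the escaper counts were 1 and 2. Escaper minus normal medians ran from −0.15 to 0.010 for metabolism, −0.13 to 0.015 for coregulators, 0.11 to 2.77 for repressed genes, −0.084 to 0.18 for regulators and −0.20 to 0.38 for nuclear receptors. Escaper minus affected medians ran from −0.58 to −0.086 for chaperones, −0.23 to 2.77 for repressed genes, 0.013 to 0.17 for regulators and 0.0031 to 0.56 for nuclear receptors. NR3C1 ran from −0.17 to 0.02 in affected and 0.08 to 0.34 in escaper minus normal. TSC22D3 ran from −0.36 to 0.21, −0.21 to 0.38 and −0.23 to 0.45 (affected minus normal, escaper minus normal, escaper minus affected), NR3C2 from −0.52 to 0.17 (affected minus normal), and FKBP5 from −1.09 to 0.31 and H6PD from −0.18 to 0.010 (escaper minus normal).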
